A study of Mus musculus with 6 samples.

Results

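The genes described here are Ltf, Lcn2, Lbp, Pigr, Saa1, Saa3, Tlr2, Tlr4, C3 and Cfb, a group of 10 innate defence genes, most of which encode secreted proteins, followed in the luminal mammary epithelial cells (MECs) of Runx1-null and Runx1-WT mice. They were chosen by symbol, and every probe set that the array annotation paired with exactly 1 of these symbols was used. That gave 15 of the 45101 probe sets on the array and covered 9 of the 10 genes. The annotation table used here paired no probe set with C3, the central complement protein, which is not analysed here. Of the other 9 genes, 8 passed the filter on dim probe sets and were tested among 12152 genes, and Saa3 did not pass it.

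The cells were YFP+ luminal MECs (Lin-CD24+CD29lo) sorted from adult virgin females of a mixed B6, 129 and FVB background. The Runx1-null group held 3 females of genotype MMTV-Cre;Runx1L/L;R26Y, and the Runx1-WT group held 3 of genotype MMTV-Cre;Runx1+/+;R26Y. Each mouse gave 1 array. Both genotypes carried the MMTV-Cre transgene and R26Y, a Rosa26 reporter that switches on YFP after Cre has acted, and differed in the floxed Runx1 allele. The cells that MMTV-Cre targets are for the most part luminal, with some basal MECs, and the sort kept the luminal gate. Adult glands hold both hormone-sensing luminal cells and luminal progenitors, so each array gives an average over these luminal cells. In such bulk RNA, fewer cells of a type and less RNA per cell cannot be told apart. The methods speak of littermates, but the labels tie no mouse to a litter.

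Innate defence in the mammary gland rests on proteins that the epithelium secretes into ducts and milk, on receptors that sense microbial products, and on plasma-type proteins that are induced in inflammation. Ltf and Lcn2 withhold iron from bacteria, Pigr carries polymeric IgA across the epithelium, the Saa genes and Lbp are classical acute phase genes, Tlr2 and Tlr4 sense bacterial lipoproteins and lipopolysaccharide, and C3 and Cfb form the alternative complement pathway. Luminal progenitors are known for high levels of several of these genes, while neutrophils and liver are other well-known sources.

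Promoters, the 250 bases before and 50 bases after a start, were RefSeq sequences (GRCm38.p6) from a table used here. It held one for 7 of the 10 genes, and those of Lbp, Tlr4 and Cfb were not analysed here. The starts used for Saa1, Saa3 and Tlr2, all on the minus strand, lie inside the spans of these genes. The Saa3 window (chr7:46715627-46715926) lies wholly inside its gene (46711998-46719615). The promoters of Ltf (chr9:111019042-111019341, plus strand) and Pigr (chr1:130826434-130826733, plus strand) are shown because the brightest probe sets of these genes ranked the 6 mice in the same order. Capitals mark a RUNX core match in Ltf, read on the opposite strand, and a STAT palindrome match in Pigr.
Ltf: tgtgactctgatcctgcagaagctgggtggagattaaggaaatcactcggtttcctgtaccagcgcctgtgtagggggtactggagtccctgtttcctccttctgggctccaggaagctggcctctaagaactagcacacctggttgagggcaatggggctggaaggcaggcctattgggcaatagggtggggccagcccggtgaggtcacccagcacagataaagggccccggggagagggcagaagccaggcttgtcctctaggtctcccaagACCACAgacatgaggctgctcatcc
Pigr: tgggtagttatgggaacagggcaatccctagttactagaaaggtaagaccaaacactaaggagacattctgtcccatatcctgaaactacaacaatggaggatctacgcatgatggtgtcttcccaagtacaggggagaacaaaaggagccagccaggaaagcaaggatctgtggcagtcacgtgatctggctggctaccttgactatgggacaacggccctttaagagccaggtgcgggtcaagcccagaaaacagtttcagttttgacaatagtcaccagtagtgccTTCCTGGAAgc
The RUNX core searched was TGTGGT and the STAT palindrome TTCNNNGAA, both on either strand. A RUNX core was present in 16.8% and a STAT palindrome in 8.3% of 32851 promoters of the same length. The Ltf match lay 25 bases after the start and the Pigr match 39 bases after it. Neither motif was present in the windows of Lcn2, Saa1, Saa3 or Tlr2. A kappaB consensus, present in 8.46% of promoters, had 3 matches in the Tlr2 window, of which a pair overlapped, and none in those of the other listed genes. These matches are descriptions of letters and not of binding.

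The promoters of Saa1 (chr7:46742931-46743230, minus strand) and its neighbour Saa2 (chr7:46751583-46751882, plus strand) are shown together. The brighter probe set annotated as Saa1 may read either gene.
Saa1: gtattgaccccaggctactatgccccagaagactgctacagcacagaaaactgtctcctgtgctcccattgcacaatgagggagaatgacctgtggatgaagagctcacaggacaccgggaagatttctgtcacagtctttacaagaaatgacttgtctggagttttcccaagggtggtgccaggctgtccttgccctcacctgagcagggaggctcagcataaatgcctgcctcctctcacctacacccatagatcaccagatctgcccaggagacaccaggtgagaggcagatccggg
Saa2: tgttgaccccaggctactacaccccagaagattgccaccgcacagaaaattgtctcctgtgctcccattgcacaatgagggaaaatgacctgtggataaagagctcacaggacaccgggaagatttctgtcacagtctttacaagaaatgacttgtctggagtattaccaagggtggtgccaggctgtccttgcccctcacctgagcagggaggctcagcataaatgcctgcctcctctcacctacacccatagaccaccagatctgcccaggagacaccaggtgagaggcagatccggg
In a global alignment of 301 positions, 287 were identical (95.3%). The Saa1 window and the Saa3 window, which lies inside its gene, were identical at 50.9% of aligned positions. The brighter probe set annotated as Saa1 was designed from a transcript that RefSeq lists under Saa2, and the dimmer one from a transcript listed under Saa1. Values of the brighter probe set, given as Saa1 below, may therefore come from Saa1, Saa2 or both, and probe sequences were not compared.

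The luminal identity markers, all 10 of which were tested, had summed intensities of 78458 to 83526 in the Runx1-WT group and 80608 to 85889 in the Runx1-null group. Cd24a among them was used in the sort. Stromal and basal markers also gave signal in these arrays, with sums of up to 21025 over 10 genes and 12573 over 8 genes. Intensities below 19.335, the floor used here, made up 18.8% to 22.3% of each array. RNA quality was read from Gapdh, whose 3' probe set exceeded its 5' probe set by a log2 value of 0.46 to 0.47 in the Runx1-WT group and 0.47 to 0.61 in the Runx1-null group, with the highest value in Runx1-null mouse 3. The same value for Actb was 0.74 in that mouse and 0.44 to 0.52 in the other 5, and its array also had the lowest median intensity, 106 against 129 to 163, and the largest share below the floor. Runx1-null mouse 3 had the highest value of all mice for 5 of the 8 tested genes (Lcn2, Ltf, Pigr, Saa1 and Tlr2), and the part of RNA quality in this was not tested. The share of all tested genes that were highest in that mouse was not computed, so this count has no background beside it. Values below are linear dChip intensities, which are comparable between mice for 1 probe set and not between probe sets. Differences are Runx1-null minus Runx1-WT on the log2 scale with their standard error (SE), and n is 3 mice per genotype unless another number is given.

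None of the 8 tested innate defence genes passed the limma test between genotypes at an adjusted p under 0.05, and over all 12152 genes limma called 0 (0.0%). At an unadjusted p under 0.05, it gave 0 of the 8 genes and 234 (1.93%) of all genes. Without Runx1-WT mouse 3 it gave 2 of the 8, Saa1 and Lbp, and 818 of the 12152 genes. Among the 4 mice with lower animal numbers it gave 2 of the 8, Saa1 and Ltf, and 1866 of the 12152 genes. The genotypes overlapped for all 8 genes, whereas they did not overlap for 5.55% of all genes (2.08% with every Runx1-null mouse higher and 3.47% with every one lower). At the level of probe sets, 0 of the 11 that passed the filter had an unadjusted p under 0.05, against 1.68% of 22709. The difference was above 0 for 7 of the 8 genes, against 44.6% of all genes, and its median was 0.13, against -0.02 over all genes. The exact two-sided permutation test of 3 mice against 3 cannot go below 0.1, and limma's adjusted p was 0.9997 for each of the 8 genes. The spread between mice differed widely among the 8 genes.

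**Figure D1:**
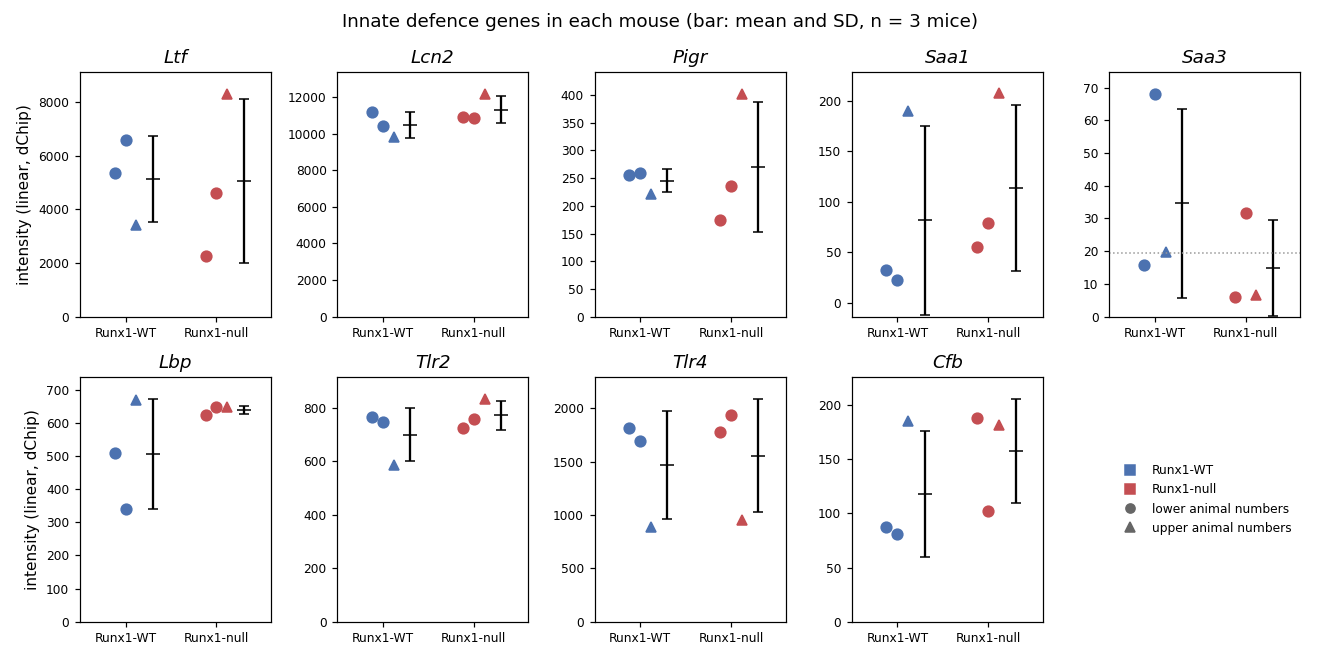
Intensity (linear, dChip) of the 9 measured innate defence genes in each mouse, with 1 panel and 1 scale per gene, points for mice and bars for the mean and SD of 3 mice, and a dotted line at the floor of 19.335 in the Saa3 panel. Lcn2 stayed between 9816 and 12152, whereas Ltf ran from 2265 to 8301 and Saa1 from 22.3 to 208.

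Lcn2, the siderophore-binding protein lipocalin 2, had a narrow range of values, near the top of the array's scale. Its intensity was 11188, 10404 and 9816 in Runx1-WT mice 1 to 3 and 10912, 10836 and 12152 in Runx1-null mice 1 to 3. The genotypes overlapped and the highest value, in Runx1-null mouse 3, was 1.24-fold the lowest. The Runx1-WT mean was 10469 ± 688 (SD, n = 3) and the Runx1-null mean 11300 ± 739 (SD, n = 3). The log2 difference was 0.11 (SE 0.07, limma adjusted p = 0.9997, exact permutation p = 0.3), and its 95% interval of -0.05 to 0.27 corresponds to a ratio between 0.966 and 1.21. The SD of log2 Lcn2 over the 6 mice was 0.10, at the 9.22th percentile of all genes tested, whose median SD was 0.27. However, all 56 tested genes with a mean at or above that of Lcn2 had an SD between 0.012 and 0.14 (median 0.052), and the highest mean of any gene was 14544. A steady level and a compressed signal at the top of the scale cannot be told apart for Lcn2.

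Ltf, the iron-binding milk protein lactoferrin, varied widely within both genotypes. It measured 5361, 6597 and 3406 in Runx1-WT mice and 2265, 4604 and 8301 in Runx1-null mice. Both the lowest and the highest mouse were Runx1-null, so the Runx1-WT mice lay inside the Runx1-null range. The means were 5121 ± 1609 (SD, n = 3) and 5057 ± 3043 (SD, n = 3), with a log2 difference of -0.16 (SE 0.47, 95% interval -1.27 to 0.95, limma adjusted p = 0.9997, exact permutation p = 0.9). This interval reaches from a ratio of 0.414 to 1.94, so changes within it were not detectable with 3 mice. Ltf had an SD of 0.67 over the mice, at the 88.9th percentile, and its direction turned when 1 mouse was left out, to 0.05 without mouse 2 of the Runx1-WT group and to 0.32 without mouse 1 of the Runx1-null group.

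Pigr, the polymeric immunoglobulin receptor, was measured by a pair of probe sets that both ranked Runx1-null mouse 3 highest and Runx1-null mouse 1 lowest. The brighter one read 256, 259 and 222 in Runx1-WT mice and 175, 235 and 402 in Runx1-null mice. The dimmer one read 196, 170 and 145 in Runx1-WT mice and 105, 194 and 420 in Runx1-null mice. On both, Runx1-null mice 1 and 3 lay outside the Runx1-WT range, on opposite sides of it, and Runx1-null mouse 2 lay inside it. The log2 differences were 0.06 (SE 0.33, limma adjusted p = 0.9997) and 0.28 (SE 0.49, limma adjusted p = 0.9999). Without Runx1-null mouse 3 the brighter probe set gave -0.27 and without Runx1-WT mouse 3 it gave -0.02.

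Ltf and the brighter Pigr probe set placed the 6 mice in an identical order. From high to low it was Runx1-null mouse 3, Runx1-WT mice 2 and 1, Runx1-null mouse 2, Runx1-WT mouse 3 and Runx1-null mouse 1. The dimmer Pigr probe set had another order, with Runx1-WT mouse 1 (196) and Runx1-null mouse 2 (194) above Runx1-WT mouse 2 (170). The order of Ltf was looked for after the values were seen, and 161 of the 12152 genes (1.32%) had it. Among them was Hp, which encodes the acute phase protein haptoglobin. It read 4774, 5222 and 2276 in Runx1-WT mice 1 to 3 and 754, 2858 and 5693 in Runx1-null mice 1 to 3. Hp was thus lowest in Runx1-null mouse 1, where Ltf and Pigr were also lowest. Il6ra, which encodes the interleukin 6 receptor, and Cd24a, a surface marker used in the sort, had the order too. The profile most like that of Ltf over the 6 mice was that of Lrrc51, with a root mean square difference of 0.05 between mean-centred log2 values, followed by Man2a2 (0.06) and Abhd12 (0.07). The 6 points behind these likenesses are the same arrays for every gene.

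**Figure D2:**
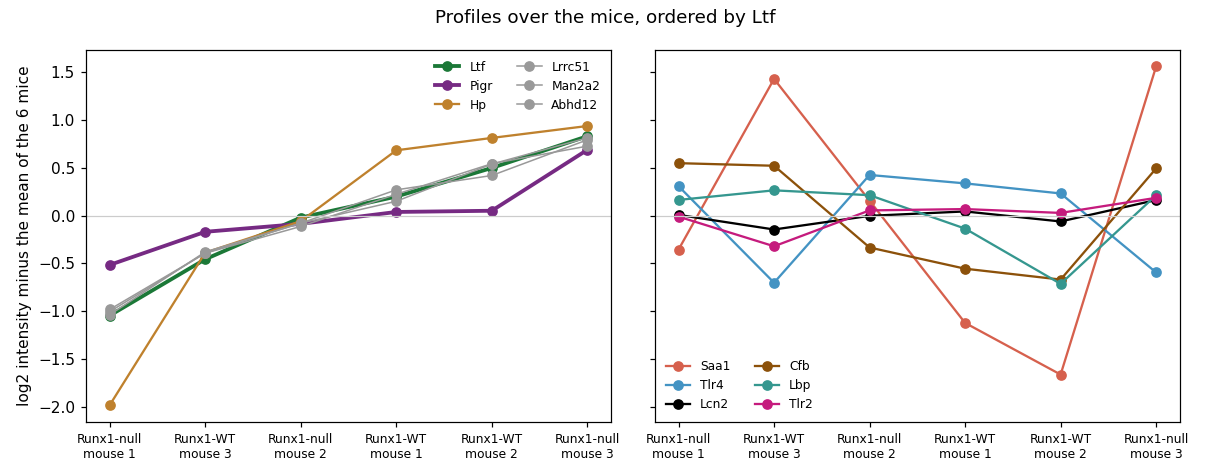
Log2 intensity minus the mean of the 6 mice, with the mice ordered by Ltf along the x axis and 1 line per gene; the left panel shows Ltf, Pigr, Hp and the 3 genes most like Ltf, and the right panel the other 6 tested innate defence genes. Pigr and Hp are drawn for having the order of Ltf and the other 3 genes for their likeness to it. The lines on the left therefore rise together from Runx1-null mouse 1 to Runx1-null mouse 3. On the right, Saa1 peaks in Runx1-WT mouse 3 and Runx1-null mouse 3, and Tlr4 is lowest in those mice.

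Saa1, on a probe set that may also read Saa2, had the widest spread of the 8 genes. Its SD was 1.31 on the log2 scale, at the 97.8th percentile of all genes. Its brighter probe set read 32.5, 22.3 and 190 in Runx1-WT mice and 55.2, 78.7 and 208 in Runx1-null mice. The highest mouse was 9.31-fold above the lowest, and the highest values were in mouse 3 of each genotype. The log2 difference between genotypes was 0.90 (SE 0.89, 95% interval -1.21 to 3.02, limma adjusted p = 0.9997, exact permutation p = 0.4). It ran from 0.30 without Runx1-WT mouse 2 to 1.84 without Runx1-WT mouse 3 (limma unadjusted p = 0.0306, adjusted p = 0.731), and was 0.35 when Runx1-null mouse 3 was the one left out. The dimmer Saa1 probe set was at 57.2 and 62.9 in mouse 3 of Runx1-WT and Runx1-null, and below the floor in the other 4 mice. The Saa2 probe set, below the filter, read 33.1, 43.5 and 145 in Runx1-WT mice and 53.0, 48.7 and 104 in Runx1-null mice, again highest in mouse 3 of each genotype.

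Saa3, the acute phase gene of extrahepatic tissue, was at or near the floor in most mice. It read 15.9, 68.0 and 19.8 in Runx1-WT mice and 5.99, 31.7 and 6.64 in Runx1-null mice, with 3 arrays below the floor. The genotypes overlapped, and mouse 2 of each genotype was its highest. Fitted without the filter, the log2 difference was -0.38 (SE 0.59, limma adjusted p = 1.0).

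Lbp, the lipopolysaccharide-binding protein that hands this bacterial product to Cd14, read 507, 340 and 670 in Runx1-WT mice and 625, 646 and 646 in Runx1-null mice. The Runx1-null mice lay close together and inside the Runx1-WT range. The log2 difference was 0.39 (SE 0.27, 95% interval -0.25 to 1.03, limma adjusted p = 0.9997, exact permutation p = 0.4). Leaving out Runx1-WT mouse 2 gave 0.13 and leaving out Runx1-WT mouse 3 gave 0.62 (limma unadjusted p = 0.0382, adjusted p = 0.731). A second Lbp probe set, below the filter, was higher in every Runx1-null mouse, at 75.2, 62.8 and 84.8 against 56.6, 51.1 and 56.7. In a fit with no filter its log2 difference was 0.43 (SE 0.15, limma unadjusted p = 0.0358, adjusted p = 1.0), so it did not pass the test. It was the 1 probe set of the 15 whose genotypes did not overlap, against 6.06% of all 34958 probe sets with 1 symbol, of which 2.66% had an unadjusted limma p under 0.05 in that fit.

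Tlr2, a receptor for bacterial lipoproteins, read 766, 745 and 585 in Runx1-WT mice and 725, 759 and 831 in Runx1-null mice. The genotypes overlapped, and its spread over the mice (SD 0.17) was below that of the median gene. The log2 difference was 0.15 (SE 0.19, 95% interval -0.29 to 0.59, limma adjusted p = 0.9997).

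Tlr4, the lipopolysaccharide receptor, was measured above the floor by 3 probe sets, and another was below the floor in all 6 mice. The brightest read 1820, 1692 and 887 in Runx1-WT mice and 1784, 1935 and 955 in Runx1-null mice. The next read 825, 814 and 574 in Runx1-WT mice and 944, 1094 and 713 in Runx1-null mice, and the third 168, 176 and 91.7 and 178, 241 and 91.3. All 3 were lowest in mouse 3 of both genotypes, and the genotypes overlapped. The log2 differences were 0.09 (SE 0.38), 0.31 (SE 0.25) and 0.18 (SE 0.44), with limma adjusted p = 0.9997 for the first and 0.9999 for the others. The sign of the first turned without Runx1-WT mouse 3, at -0.24.

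Cfb, complement factor B of the alternative pathway, read 87.8, 81.1 and 185 in Runx1-WT mice and 188, 102 and 181 in Runx1-null mice. A single Runx1-WT mouse was as high as the Runx1-null mice, and the others were below them all. The log2 difference was 0.47 (SE 0.43, 95% interval -0.55 to 1.49, limma adjusted p = 0.9997, exact permutation p = 0.3). Leaving out 1 mouse moved it between 0.25 (Runx1-WT mouse 2 left out) and 0.85 (Runx1-WT mouse 3 left out).

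**Figure D3:**
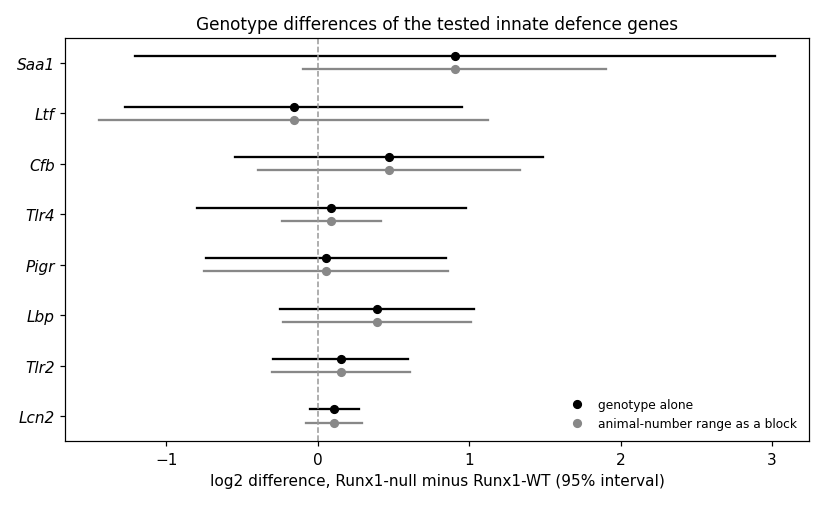
Log2 difference (Runx1-null minus Runx1-WT) of the 8 tested innate defence genes with 95% intervals from limma, black for genotype alone and grey with the animal-number range blocked. Every interval includes 0, from the narrow one of Lcn2 (-0.05 to 0.27) to that of Saa1 (-1.21 to 3.02).

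The mouse that stood out for Saa1 and Tlr4 was mouse 3 of each genotype, and these are the mice with the upper animal numbers in the labels. The other 4 mice have lower numbers, and both ranges hold both genotypes. The labels do not say whether the ranges are cohorts, litters or sorting days, and the comparison was added after the values were seen. Between ranges, limma with genotype in the fit called 0 (0.0%) of 12152 genes at an adjusted p under 0.05 and gave 1076 (8.85%) at an unadjusted p under 0.05, 3.01% higher and 5.84% lower in the upper range. Over the other settings this count ran from 544 to 2875, and the share of it that was higher in the upper range, 34.0% here, was 59.9% under quantile normalization and 94.1% under median scaling, which moved the median difference of all genes from 0.01 to 0.33. Of the 8 genes, Saa1 (higher) and Tlr4 (lower) were among the 1076, and these were also the 2 whose ranges did not overlap, against 20.2% of all genes.

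Saa1 was higher in both upper mice, at 190 and 208, than in the 4 lower mice, at 22.3 to 78.7. The log2 difference, upper minus lower, was 2.24 (SE 0.42, 95% interval 1.18 to 3.30), a ratio of 4.72 (limma unadjusted p = 0.0024, adjusted p = 0.36). Tlr4 was lower in both upper mice, at 887 and 955, than in the 4 lower mice, at 1692 to 1935. Its log2 difference was -0.97 (SE 0.14, 95% interval -1.32 to -0.63, limma unadjusted p = 0.000596, adjusted p = 0.36). Both exact permutation p were 0.0667, the smallest that 2 mice against 4 allow. Over all genes, 10.2% were higher in both upper mice than in every lower mouse and 10.0% were lower. Over quantile normalization, median scaling and leaving out each mouse, the difference ran from 1.66 to 2.82 for Saa1 and from -0.999 to -0.65 for Tlr4. The extremes for Saa1 came from leaving out mouse 3 of either genotype, each with 1 mouse left in the upper range, assumed to vary like the others.

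The other 6 genes differed between ranges by -0.10 (Tlr2) to 0.76 (Cfb), with an unadjusted limma p above 0.05 for each, but some moved under other settings. Cfb was at 1.05 under quantile normalization (limma unadjusted p = 0.026) and 1.08 under median scaling (limma unadjusted p = 0.0244). It was at 0.39 to 1.13 over the left-out mice. Lbp was at 0.68 under median scaling (limma unadjusted p = 0.0178) and at 0.024 to 0.69 over the left-out mice. Without Runx1-WT mouse 3, which left 1 upper mouse, Ltf was at 1.36 (limma unadjusted p = 0.0204, adjusted p = 0.194) and Pigr at 0.99 (limma unadjusted p = 0.0235, adjusted p = 0.202). None of these had an adjusted p under 0.05.

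Genes with a profile like that of Saa1 were Dkk3, with a root mean square difference of 0.27, Plekhs1 (0.31) and Fam20a (0.38). Dkk3, which encodes a secreted protein of the Dickkopf family, read 178, 107 and 741 in Runx1-WT mice and 296, 281 and 713 in Runx1-null mice.

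With the range as a block, the genotype difference of Saa1 was still 0.90 and its SE was 0.40 (95% interval -0.09 to 1.90, limma adjusted p = 0.9996). That of Tlr4 was 0.09 (SE 0.13, 95% interval -0.24 to 0.42, limma adjusted p = 0.9996). Among the 4 lower mice, Saa1 differed by 1.29 (limma unadjusted p = 0.0345, adjusted p = 0.304) and Ltf by -0.88 (limma unadjusted p = 0.0475, adjusted p = 0.324), so neither passed the test. In the upper range, with 1 mouse per genotype and no test, the differences were 0.13 for Saa1 and 1.29 for Ltf.

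**Figure D4:**
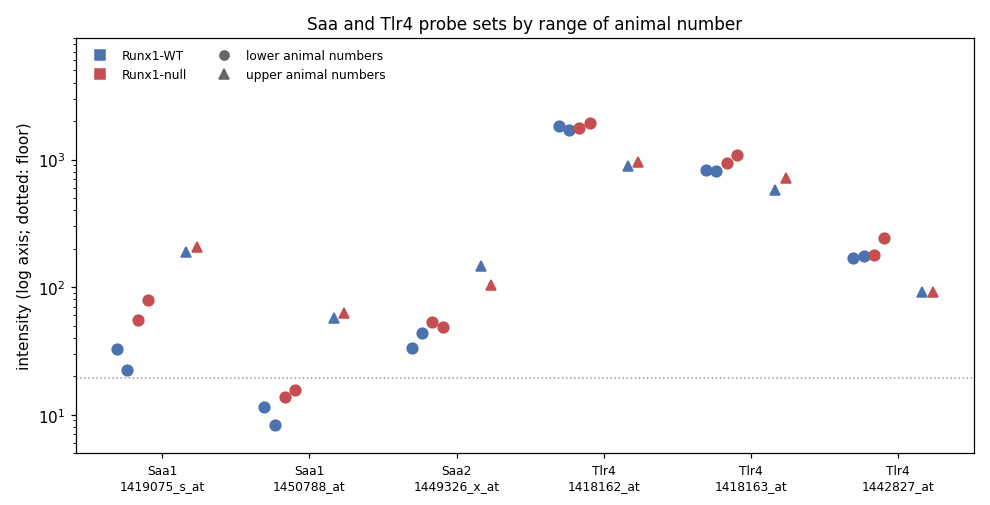
Intensity (log axis) of the Saa1, Saa2 and Tlr4 probe sets in each mouse, coloured by genotype, with circles for the 4 mice with lower and triangles for the 2 mice with upper animal numbers and a dotted line at the floor of 19.335. On every probe set shown the triangles lie outside the circles, above them for Saa1 and Saa2 and below them for Tlr4. Saa1 and Tlr4 were picked as the tested innate defence genes whose ranges did not overlap, which also held for 20.2% of all genes.

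Markers of other cell types were read in the same arrays, since Ltf, Lcn2 and the Saa genes are also made outside the epithelium. Some of the 10 measured neutrophil genes were dim. Elane, which encodes neutrophil elastase, was at 16.5 to 31.3, Mpo at 10.1 to 22.8 and Mmp8 below the floor in all 6 mice. Ngp, a neutrophil granule protein gene, was at 6.83 to 30.5 in 5 mice and at 78.8 in Runx1-null mouse 1. S100a9, a calprotectin subunit gene, reached 1011 in that mouse and 21.0 to 226 elsewhere. Its partner S100a8 was at 219 to 633 in Runx1-WT mice and 631 to 872 in Runx1-null mice, and neither gene passed the test. The sum over the 10 measured neutrophil genes was 440 to 1132 in Runx1-WT and 855 to 2205 in Runx1-null mice. The sum was highest in Runx1-null mouse 1. The part of neutrophils in the Ltf, Lcn2 and Saa values was not tested.

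Of the 5 liver genes, Alb was at 8.19 to 35.3 and Apob at 4.99 to 24.3, at or near the floor, whereas Apoa1 was at 52.6 to 105 and Ttr at 59.3 to 93.9. Fgb, which encodes a fibrinogen chain and is also an acute phase gene, was at 2312 to 10365, lowest in Runx1-null mouse 1, and made up most of the liver sum of 2489 to 10579. The part of liver-type RNA in the acute phase values was not tested. The sum of 13 leukocyte genes was 8390 in Runx1-WT mouse 3, against 1688 to 2980 in the other 5 mice. Cd74 alone read 4218 in that mouse. Runx1-WT mouse 3 shared its high Saa1 and low Tlr4 with Runx1-null mouse 3, in which the leukocyte sum was 2544. Between the ranges (upper minus lower), 9 of the 10 tested leukocyte genes were above 0 (median 1.51) and Csf1r was at -0.33. Of the 10, 4 were higher in both upper mice than in every lower mouse, against 10.2% of all genes. Fcer1g, for example, read 334 and 202 in the upper mice and 78.3 to 123 in the lower mice. The part of leukocytes in the values of the upper mice was not tested.

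All 10 tested stromal genes were below 0 (median -0.60), with a sum of 19481 to 21025 in Runx1-WT against 7919 to 17566 in Runx1-null mice, and 0 passed the test. All 5 tested endothelial genes were also below 0 (median -0.70), and 0 passed. Of the basal genes 5 of 6 tested were above 0 (median 0.49), with a sum of 4190 to 9421 in the Runx1-WT group and 4012 to 12573 in the Runx1-null group, and 0 passed. Between the ranges (upper minus lower), 1 of the 10 tested stromal genes was above 0 (median -0.63). Of the 10, 2 were lower in both upper mice than in every lower mouse, against 10.0% of all genes. Dcn, for example, was at -1.10. Of the 6 tested basal genes, 1 was above 0 between the ranges (median -0.45), and of the 5 endothelial genes 3 were (median 0.08). The summed adipocyte genes ran from 2056 to 3488 and the milk genes from 17161 to 24342. Within the milk list, Csn2 ran from 4.31 to 3119 and Csn1s1 from 17.9 to 3826, both highest in Runx1-WT mouse 3. Csn3 stayed between 10919 and 12763, near the top of the array's scale, where a signal may be compressed. The part of all these cell types and genes in the innate defence values was not tested. The luminal progenitor list had 9 of 10 genes above 0 (median 0.17) and the mature luminal list 6 of 7 below 0 (median -0.19), with 0 genes passing in either.

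Around the 10 genes, lists of other members of the same defence pathways were read from the same fit, and 0 genes passed the test in any list. Of the antimicrobial and acute phase genes, 14 were tested, 3 were above 0 and 11 below it, with a median of -0.36 against -0.02 over all genes. This median was on the other side of 0 from that of the 8 innate defence genes, and without Runx1-null mouse 1 it was 0.08. The gene of this list whose genotypes did not overlap was Defb1, which encodes the epithelial antimicrobial peptide beta-defensin 1. It read 4386, 6408 and 7016 in Runx1-WT mice and 4308, 3627 and 3181 in Runx1-null mice, a log2 difference of -0.66 (SE 0.20, limma unadjusted p = 0.0126, adjusted p = 0.9997). Hp was at -0.74 (SE 0.72) and Lyz1, a lysozyme gene, at -0.69 (SE 0.61), while Cp, which encodes the copper-carrying ferroxidase ceruloplasmin, was at 0.24 (SE 0.12).

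Of the complement genes, 12 were tested, 6 above and 6 below 0, with a median of 0.01 that was -0.47 with the filter at the 60th percentile, -0.27 among the 4 lower mice, -0.26 after leaving out Runx1-WT mouse 2 and -0.37 after leaving out Runx1-null mouse 3. Clu, which encodes clusterin, an inhibitor of the terminal complement complex, was a little higher in every Runx1-null mouse, at 10571 to 10784 against 10024 to 10101. Its log2 difference was 0.08 (SE 0.04, limma adjusted p = 0.9997). As for Lcn2, the values of Clu lie near the top of the array's scale, where a signal may be compressed. C1s1 and C1ra, which encode proteases of the classical pathway, were at -0.97 (SE 0.73) and -0.70 (SE 0.53), with genotypes that overlapped.

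Of the genes for microbial sensing around Tlr2 and Tlr4, 13 were tested, 7 above and 6 below 0, with a median of 0.00. Cd14, the co-receptor for lipopolysaccharide, was at 0.18 (SE 0.12), Ly96, the partner that Tlr4 needs to bind lipopolysaccharide, at -0.41 (SE 0.23), and the adaptor Myd88 at -0.07 (SE 0.20). None of their limma adjusted p was under 0.05.

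Of 16 NF-kappaB genes, 12 were above 0, with a median of 0.10 (-0.028 without Runx1-WT mouse 2), from Nfkbiz at -0.25 (SE 0.25) to the adhesion molecule gene Icam1 at 0.38 (SE 0.29). Of 17 genes for the cytokines that drive the acute phase and their signalling, 7 were above 0, with a median of -0.03 that became 0.06 under median scaling of the arrays. Lif, an interleukin 6 family cytokine gene, was at 0.44 (SE 0.20), and its feedback inhibitor Socs3 at -0.33 (SE 0.40). Of the IgA transport genes, 4 were tested and 3 were above 0, with Jchain, which encodes the chain that joins polymeric IgA for Pigr, at 0.78 (SE 0.56) and Igha at -0.26 (SE 1.40).

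**Figure D5:**
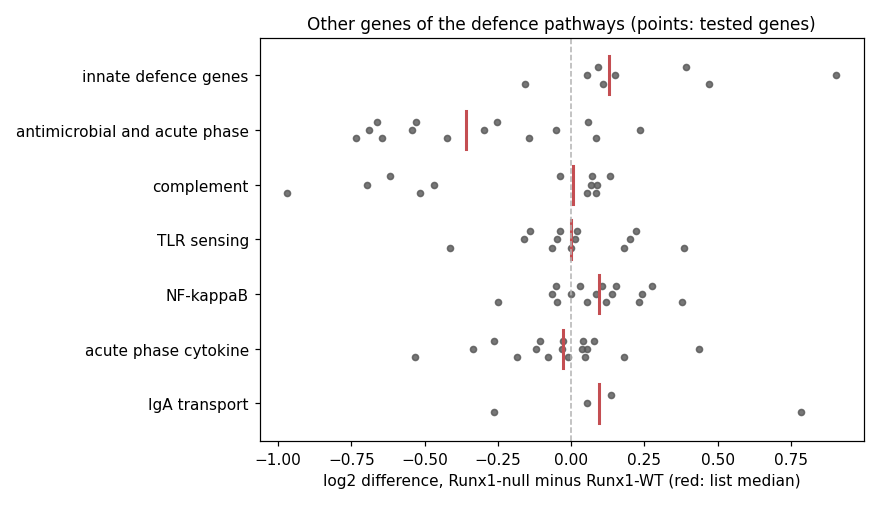
Log2 difference (Runx1-null minus Runx1-WT) of each tested gene (points) and the list median (red line) for the 8 innate defence genes and for 6 lists of other defence pathway genes. The antimicrobial and acute phase list has its median at -0.36, and the other 5 lists have medians between -0.03 and 0.10.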

How the data were processed

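The arrays (Affymetrix Mouse Genome 430 2.0) were hybridized with amplified RNA of sorted YFP+ luminal MECs from 6 separate mice. The deposited values are linear intensities that the authors had normalized with dChip, whose version is not given in the sources used here. With arrays, precision is limited by the number of mice.

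Through the platform annotation, 34958 probe sets had 1 symbol, 932 had several and 9211 had none. Intensities under a floor of 19.335, the pooled 20th percentile, were raised to it before taking log2. The brightest probe set stood for each gene. Genes whose mean reached the 40th percentile (73.5) entered limma 3.58.1 (R 4.3.3; lmFit, eBayes with trend), with Benjamini-Hochberg adjustment over all 12152. Exact two-sided permutation tests used SciPy 1.17.1. The code was checked on simulated data.

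The genes and lists were chosen with earlier results of these data known. Named are all 10 genes, in each list the non-overlapping genes (up to 4 by p) and the 2 largest differences each way, defining markers, and for Ltf and Saa1 the 3 most similar profiles. For each list the text gives a selection of these. Alternatives covered the filter (none, or the 60th percentile), scaling of arrays (quantile or median), a pseudocount of 5.04 for the floor, robust eBayes, all probe sets, the methods' t-test, leaving out each mouse, and the animal-number range (as a block, or its lower 4 mice alone). The comparison of ranges and the fit of dim probe sets with no filter were added after the values were seen.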

Additional observations from a re-analysis of the deposited data

How the results depend on the processing

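No paired analysis was possible because the replicate numbers were given in accession order and pair no mice. Genes called by genotype numbered 0 in all settings run, with 78 to 818 at an unadjusted p under 0.05 when 1 mouse was left out and 1866 among the 4 lower mice. The methods' t-test gave 335 genes at an unadjusted p under 0.05 and 0 after Benjamini-Hochberg adjustment. The median of the tested innate defence genes ran from 0.047 to 0.32 over the left-out mice. Leaving out 1 mouse gave -0.61 to 0.32 for Ltf, -0.27 to 0.33 for Pigr and -0.24 to 0.41 for Tlr4. Among the 4 lower mice, Pigr was at -0.35 and Tlr2 at -0.026. In the upper range, with 1 mouse per genotype, Ltf was at 1.29, Lbp at -0.051 and Cfb at -0.028. For all of these the cause was not tested. Between animal-number ranges, leaving out 1 mouse gave 0 to 1 called genes, the latter without Runx1-WT mouse 3, which leaves 1 mouse in the upper range, assumed to vary like the others. The range difference then ran from -0.80 to 1.36 for Ltf, from -0.14 to 0.16 for Lcn2, from -0.21 to 0.99 for Pigr and from -0.37 to 0.16 for Tlr2. Under quantile normalization it was -0.0063 for Lcn2 and 0.037 for Tlr2, and under median scaling 0.22 for Tlr2. Saa3 and the dimmer Saa1 probe set lie at the floor in 3 and 4 arrays, where differences have no order.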
